A study of Drosophila melanogaster with 8 samples.

Results

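The vacuolar ATPase (V-ATPase) genes of Drosophila melanogaster were taken as the protein-coding genes of the Ensembl BDGP6 annotation whose symbol begins with Vha, which gave 33 of 13986 protein-coding genes. For each of them, NELF-E peaks that overlapped the 500 bp on either side of an annotated transcript start (a start peak) were read in 4 ChIP-seq peak lists. The lists came from Kc167 cells, a female line of embryonic origin with hemocyte-like features, and served to ask whether loss of Argonaute2 (AGO2) alters where NELF-E binds. The 2 siAGO2 libraries came from cells transfected with an siRNA against AGO2 and collected days later, and the 2 mock libraries from cells that went through the procedure without it. No source used here says that the libraries of a group came from separate cultures, so p-values measure only the spread between these libraries. The 4 input samples were not used here, and these lists give no measure of AGO2 itself. Of 8 hemocyte lineage genes, 6 (srp, ush, Hml, Pxn, Col4a1 and vkg) had a start peak in all 4 lists, eater had one in 2 lists, and NimC1 had none. Of all protein-coding genes, 37% had a start peak in all 4 lists, and a start peak does not measure expression.

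The V-ATPase is a rotary proton pump that acidifies lysosomes, endosomes and secretory vesicles. Its cytosolic V1 sector hydrolyses ATP, and its membrane sector V0 carries protons through a ring of proteolipids. Many subunits have several gene copies in the fly, of which one usually serves most tissues while others are used in testis, gut or neurons. Mitf, the fly relative of mammalian TFEB, binds CLEAR elements with the core CACGTG and drives many lysosomal and V-ATPase genes. NELF (Negative Elongation Factor) holds RNA polymerase II paused just downstream of the start, and is found near the starts of many active genes. From what is known of these genes, 14 were classed as widely expressed and 12 as tissue-restricted, and 7 were left in an unsure class. The classes rest on general knowledge and not on expression measured in these cells. They were set with earlier results of these data known, so the contrast between them is descriptive.

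All 14 widely expressed genes had a start peak in each of the 4 lists, and 1 of the 12 tissue-restricted genes did, the neuronal a subunit gene Vha100-1. Among all protein-coding genes, 48.1% and 43.5% had a start peak in mock 1 and mock 2, and 39.1% and 41.1% in siAGO2 1 and siAGO2 2. The widely expressed genes thus lay above that background in every library, and the tissue-restricted genes below it. Of the 33 genes together, 19 and 17 had a start peak in mock 1 and mock 2, and 18 and 17 in siAGO2 1 and siAGO2 2. A start peak in all 4 lists was held by 16 of the 33 genes, beside 37% of all protein-coding genes. Both classes gave the same count in mock and siAGO2 libraries.

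**Figure D1:**
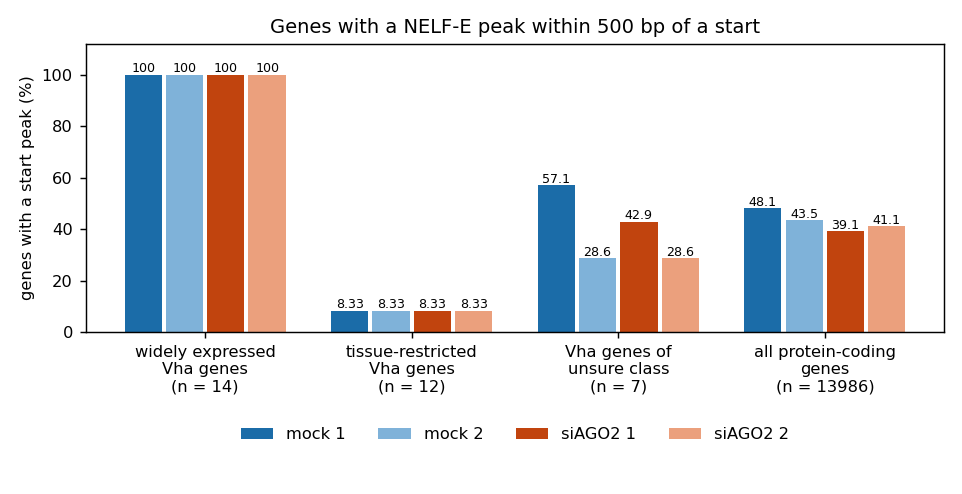
Percentage of genes with a NELF-E peak within 500 bp of an annotated start, for 3 classes of Vha genes and for all protein-coding genes, with 1 bar for each library. The widely expressed genes stand at 100% and the tissue-restricted genes at 8.33% in every library, beside 39.1% to 48.1% of all protein-coding genes.

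To show the DNA at these starts, 5 promoter windows of 300 bases are printed, from 250 bases before to 50 bases after the start in the RefSeq dm6 genome, 5′ to 3′ on the strand of the gene. Vha100-2 had the highest mean rank of the family, and Vha100-1 was the bound gene of the tissue-restricted class (mean rank percentile 95.1 and 29.1), while Vha55, VhaAC45RP and VhaM9.7-d carry a CACGTG. Capitals mark the searched letters named further on, in either orientation except for TCAGT, which was read on the sense strand alone. For genes with peaks, the window is set at the start nearest to most summits.
Vha100-2, chr3R:18399120-18399419, minus strand: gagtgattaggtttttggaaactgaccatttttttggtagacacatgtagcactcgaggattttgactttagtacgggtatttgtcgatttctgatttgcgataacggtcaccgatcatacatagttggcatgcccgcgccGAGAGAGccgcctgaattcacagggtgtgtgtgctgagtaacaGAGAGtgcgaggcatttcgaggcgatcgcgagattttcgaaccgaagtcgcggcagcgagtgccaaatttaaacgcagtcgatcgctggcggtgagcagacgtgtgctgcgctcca
Vha100-1, chr3R:29131017-29131316, plus strand: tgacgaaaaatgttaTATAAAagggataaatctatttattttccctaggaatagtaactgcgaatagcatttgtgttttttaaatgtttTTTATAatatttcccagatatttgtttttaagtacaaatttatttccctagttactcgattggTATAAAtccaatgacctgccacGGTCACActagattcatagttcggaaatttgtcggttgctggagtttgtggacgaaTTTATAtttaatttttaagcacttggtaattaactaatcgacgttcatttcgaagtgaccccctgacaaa
Vha55, chr3R:12627652-12627951, minus strand: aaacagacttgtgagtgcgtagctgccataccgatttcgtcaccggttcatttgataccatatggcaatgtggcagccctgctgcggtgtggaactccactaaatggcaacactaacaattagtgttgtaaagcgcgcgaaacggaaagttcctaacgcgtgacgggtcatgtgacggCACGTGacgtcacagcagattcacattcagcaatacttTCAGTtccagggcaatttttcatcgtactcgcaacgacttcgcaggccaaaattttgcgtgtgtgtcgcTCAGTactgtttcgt
VhaAC45RP, chr3R:30166370-30166669, minus strand: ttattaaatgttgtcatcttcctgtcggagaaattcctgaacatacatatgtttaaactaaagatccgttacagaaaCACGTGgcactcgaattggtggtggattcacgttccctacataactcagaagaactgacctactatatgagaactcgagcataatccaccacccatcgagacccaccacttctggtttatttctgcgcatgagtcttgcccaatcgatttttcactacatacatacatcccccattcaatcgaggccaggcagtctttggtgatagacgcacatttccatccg
VhaM9.7-d, chr3R:16974954-16975253, plus strand: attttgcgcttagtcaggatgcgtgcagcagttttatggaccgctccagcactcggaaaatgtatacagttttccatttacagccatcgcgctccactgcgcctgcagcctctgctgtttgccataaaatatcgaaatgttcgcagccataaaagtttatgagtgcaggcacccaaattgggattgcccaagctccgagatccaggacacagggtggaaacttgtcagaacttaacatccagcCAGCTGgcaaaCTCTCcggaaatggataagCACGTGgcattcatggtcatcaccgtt

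The libraries differed in depth. Solving the deposited fold and p-value of each summit for whole fragments gave a genome-wide background of 4.46 and 2.19 fragments in mock 1 and mock 2, and of 1.18 and 1.48 in siAGO2 1 and siAGO2 2. Both an enrichment and a rank are therefore given for each gene. Summit enrichment is the number of fragments at the summit over that background, with a 95% exact Poisson interval that covers counting error only. The rank percentile is the place of the score of a gene's highest start peak among the 5175 protein-coding genes bound in all 4 lists. No summit of any list held more than 294 fragments, which sets the highest possible enrichment at 65.9 in mock 1, 134 in mock 2, 249 in siAGO2 1 and 199 in siAGO2 2.

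In the V1 sector, a start peak was present in all 4 lists at 8 of the 13 genes, 1 for each of the subunits A to H. Their peaks ran from well above to well below the middle of all bound genes. Vha68-2, which encodes the catalytic A subunit, had an enrichment of 60.5, 89.0, 106 and 101 in mock 1, mock 2, siAGO2 1 and siAGO2 2. Vha55, which encodes the nucleotide-binding B subunit, had 28.5, 32.9, 39.0 and 33.8. Vha14-1, which encodes subunit F of the rotor stalk, had 13.2, 11.4, 18.6 and 17.6. In these 3 genes both siAGO2 values lay above both mock values. The siAGO2 values of Vha68-2 also lay above 65.9, the highest that mock 1 could show. The median over all protein-coding genes bound in all 4 lists was 26.7, 29.2, 29.7 and 27.7, so Vha68-2 stood above it and Vha14-1 below it in every library.

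The other 5 V1 genes had lower enrichment than Vha68-2 in every library. Vha36-1, which encodes subunit D of the central rotor, had an enrichment of 36.5, 42.9, 50.0 and 51.4 in mock 1, mock 2, siAGO2 1 and siAGO2 2. VhaSFD, which encodes subunit H, had 39.9, 51.6, 57.6 and 59.5. Both genes were higher in each siAGO2 library than in either mock library. Vha13, which encodes subunit G of the stator stalk, had 31.6, 37.9, 33.1 and 36.5. Vha26, which encodes the stator subunit E, had 19.3, 19.6, 14.4 and 20.3. Vha44, which encodes subunit C at the joint of V1 and V0, had 40.4, 43.4, 42.4 and 34.5. The mock and siAGO2 values of Vha13, Vha26 and Vha44 overlapped.

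In the V0 sector, 7 of the 18 genes had a start peak in all 4 lists. The most enriched start peak of the whole family was that of Vha100-2, which encodes the widely used form of the large membrane subunit a. It held 285, 260, 211 and 221 fragments at its summit in mock 1, mock 2, siAGO2 1 and siAGO2 2, an enrichment of 63.9, 119, 179 and 149. Its value in mock 1 lay just under the highest that library could show, and that in mock 2 not far under its highest, 134. Both siAGO2 values lay above what mock 1 could show. Its mean enrichment was 1.80 times as high in the siAGO2 libraries (164) as in the mock libraries (91.3). The part of the mock ceilings in this ratio was not tested. Its rank percentile was 89.5, 97.2, 96.3 and 97.4, in which the groups overlapped.

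Vha16-1, which encodes the main proteolipid of the c ring, came next in this sector, with an enrichment of 52.5, 75.8, 89.0 and 83.8 in mock 1, mock 2, siAGO2 1 and siAGO2 2. Its enrichment was higher in both siAGO2 libraries, but its rank percentile was 91.6, 87.7, 83.7 and 85.7 and thus lower in both. The scale decided the direction for this gene. Both of its siAGO2 enrichments lay above 65.9, the highest that mock 1 could show. VhaPPA1-1, which encodes the c'' proteolipid, had an enrichment of 32.7, 37.0, 44.1 and 37.8. VhaAC39-1, which encodes subunit d that links the ring to the V1 rotor, had 24.7, 24.7, 26.3 and 25.7. Both siAGO2 values of these 2 genes lay above both mock values. The highest mock and lowest siAGO2 value were apart by far less than the counting intervals. These were, for example, 17.85 to 37.3 for VhaAC39-1 in siAGO2 1 and 28.6 to 49.1 for VhaPPA1-1 in siAGO2 2.

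VhaM9.7-b and VhaAC45 were among the Vha genes that start near a bound neighbour on the other strand, and further ones are given below. VhaM9.7-b, which encodes the small membrane subunit e, starts 415 bp from COX8 on the other strand. A peak lay nearest to its own start in every list, with an enrichment of 33.9, 43.8, 38.1 and 33.1 in mock 1, mock 2, siAGO2 1 and siAGO2 2. The peak of the higher score within its window was nearest to the start of COX8 in 3 of the lists, and had 55.7 in mock 2, 55.1 in siAGO2 1 and 51.4 in siAGO2 2. The rank percentile of its own peak, among genes with such a peak in all 4 lists, was 75.9 and 69.2 in the mock and 56.4 and 53.4 in the siAGO2 libraries. VhaAC45, the accessory subunit gene, has Gnptab 437 bp away, whose peak was the higher one in mock 2. Its own peak had 26.7, 19.6, 30.5 and 34.5, higher in both siAGO2 libraries than in either mock library.

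**Figure D2:**
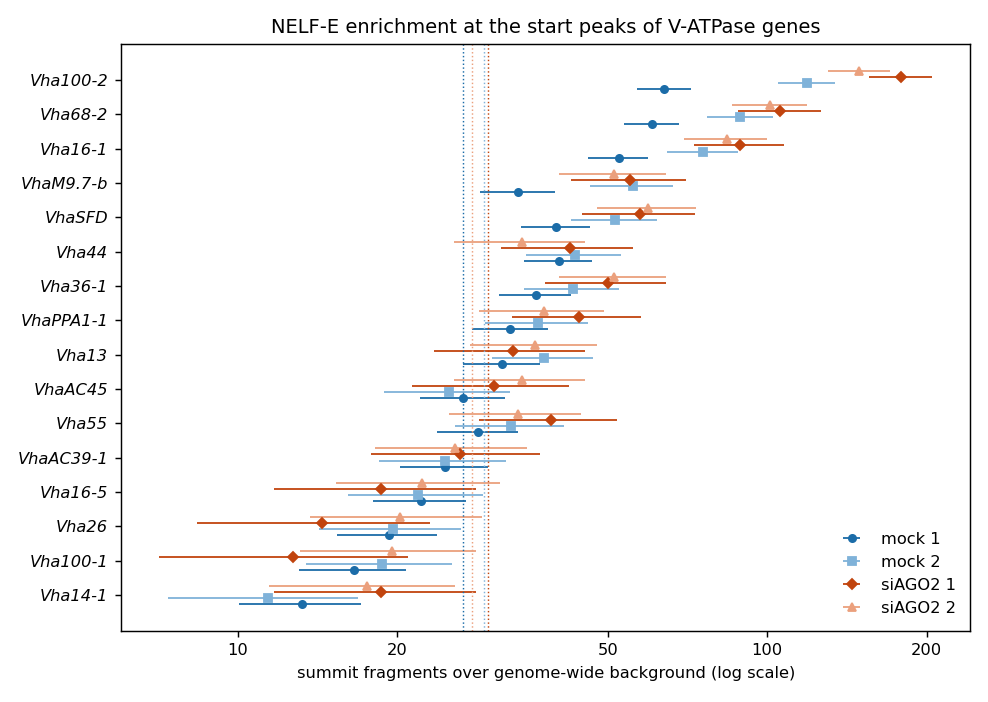
Summit enrichment (fragments at the summit over the genome-wide background, log axis) of the highest start peak of the 16 Vha genes bound in all 4 lists, with 1 point for each library and 95% Poisson intervals. Dotted lines give the median of all 5175 protein-coding genes in each library, 26.7 to 29.7; Vha100-2 lies at 63.9 to 179 and Vha14-1 at 11.4 to 18.6.

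Of the 16 genes, 10 had a higher enrichment in both siAGO2 libraries than in either mock library, and none had a lower one. Over all 5175 protein-coding genes, 35.7% were higher and 11.6% lower in this way. The 10 genes were Vha100-2, Vha14-1, Vha16-1, Vha36-1, Vha55, Vha68-2, VhaAC39-1, VhaAC45, VhaPPA1-1 and VhaSFD. At each of them the counting intervals of the highest mock and the lowest siAGO2 value overlapped. Even at Vha100-2 they were 105 to 134 in mock 2 and 130 to 170 in siAGO2 2. At Vha100-2, Vha16-1 and Vha68-2 both siAGO2 values lay above 65.9, the highest that mock 1 could show. At such siAGO2 values, the order of these genes against mock 1 could not have been otherwise. The median enrichment of the 16 genes was 32.2, 37.4, 40.7 and 35.5 in mock 1, mock 2, siAGO2 1 and siAGO2 2. The means of these medians, 34.8 ± 3.72 in mock and 38.1 ± 3.68 in siAGO2 (SD, n = 2), did not differ beyond the spread between libraries (exact permutation test, two-sided, p = 0.667). With 2 libraries against 2 the smallest p that this test allows is 0.333, so it could call no difference. Without mock 1, the deepest library with the lowest ceiling, 10 of the 16 were higher and 3 lower, beside 41.8% and 25.5% of all genes. Without mock 2, 12 were higher and 0 lower, beside 58.9% and 17.4% of all genes. Without siAGO2 1 the counts were 13 and 1, beside 46% and 25.8%, and without siAGO2 2 they were 10 and 3, beside 58.5% and 20.9%, so that the latter share of higher genes was close to its background. The difference between the medians of 3.27 became 0.632 without mock 1, 5.11 without mock 2 and 0.664 without siAGO2 1. The share of cells with NELF-E at a start and the amount of it per cell cannot be told apart in bulk chromatin.

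The direction of the ranks depended on the measure ranked. By score, the rank percentile was higher in both siAGO2 libraries at 4 genes, Vha13, Vha14-1, Vha55 and Vha68-2, beside 22% of all protein-coding genes bound in all 4 lists. It was lower in both at another 4, Vha16-1, Vha16-5, Vha44 and VhaM9.7-b, beside 20.5%. These shares were close to the background, with 8 genes in which the groups overlapped. The ranked peak lay nearest to a neighbour's start at Vha16-5 and Vha44 in all 4 lists and at VhaM9.7-b in 3. With each peak given to its nearest start, 5 genes were higher and 2 lower, beside 22.05% and 20.56% of all genes. Ranked by fold, 5 were higher and 2 lower (23.19% and 21.95% of all genes), and ranked by summit enrichment, 7 were higher and 1 lower (22.55% and 19.34%). Vha14-1 showed the widest gap, with 8.83 and 5.38 in mock 1 and mock 2 and 34.0 and 27.4 in siAGO2 1 and siAGO2 2. The median rank percentile of the 16 genes was 61.0, 58.3, 60.8 and 62.1, above the 50 of all genes in every library. The means were 59.6 ± 1.88 in mock and 61.5 ± 0.915 in siAGO2 (SD, n = 2; exact permutation test, two-sided, p = 0.667).

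**Figure D3:**
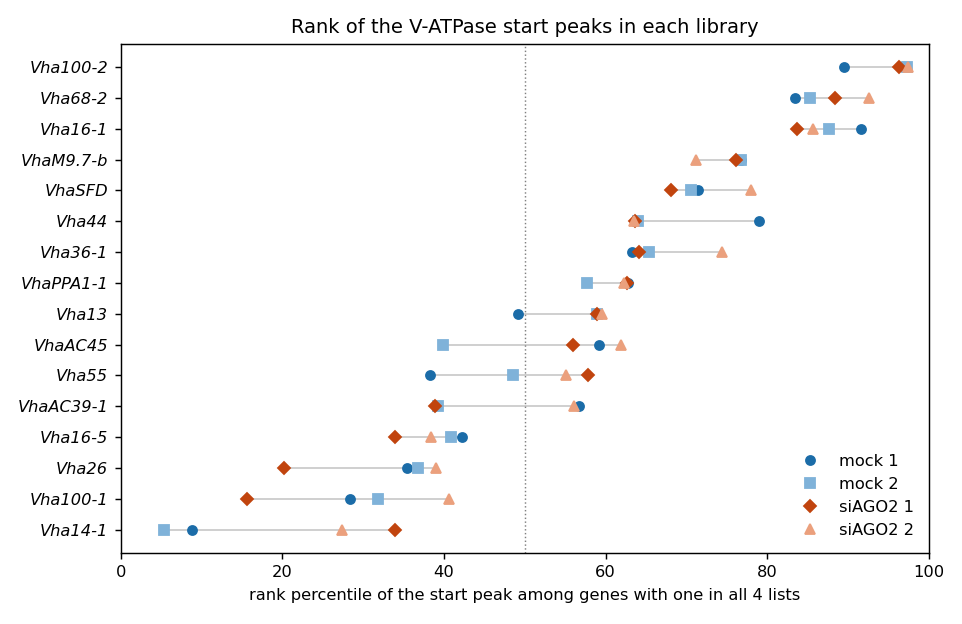
Rank percentile of the highest start peak of each of the 16 Vha genes among the 5175 protein-coding genes bound in all 4 lists, with 1 point for each library and the dotted line at the middle of all genes. By their mean, Vha14-1 lies lowest, from 5.38 to 34.0, and Vha100-2 highest, from 89.5 to 97.4.

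No Vha gene had a start peak in both mock lists and in neither siAGO2 list, beside 2.51% of protein-coding genes, and none had the reverse, beside 0.00715%. The number of Vha genes with a start peak was 18 ± 1.41 in mock and 17.5 ± 0.707 in siAGO2 (SD, n = 2; exact permutation test, two-sided, p = 1). Genes bound in only some of the lists all had weak peaks. Vha68-1, another A subunit gene, had a peak at its own start in mock 1 alone, with an enrichment of 9.42. In both siAGO2 lists the peak in its window lay nearest to mTor, which starts 373 bp away on the other strand and encodes the kinase that senses amino acids at the lysosome, with 9.32 in siAGO2 1 and 12.8 in siAGO2 2. VhaM9.7-c, a copy of the e subunit gene, had 11.4 in mock 1, 11.0 in mock 2 and 11.9 in siAGO2 1. VhaM9.7-a, another copy of it, had a single peak of 6.73 in mock 1, nearest to the start of CG11586.

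Several starts lie so close to a neighbour that a peak within 500 bp may belong to either. Each peak was therefore also given to the nearest annotated start of any gene. Vha16-5, a proteolipid copy of unsure class, then lost its peaks, whose summits lay at -438 to -402 bp from its start and 100 to 136 bp from the start of CG12299. Vha44 lost its peaks to Hmgs, the hydroxymethylglutaryl-CoA synthase gene on the other strand, whose start lay 7 to 52 bp from the summits. Vha26 and noi, and Vha100-1 and dgt6, each kept separate peaks in every list. Vha36-1 starts 72 bp from CG8187 on the other strand. Its window held a single peak in every list, with the summit nearest to Vha36-1. A peak nearest to their own start remained in all 4 lists at 14 genes, which were 13 of the 14 widely expressed genes and Vha100-1.

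At these 14 genes the summits lay just downstream of the start. Of their 56 summits, 55 were downstream, with a median of 78 bp and a range from -5 to 196 bp. The median was 76, 75, 69.5 and 98 bp in mock 1, mock 2, siAGO2 1 and siAGO2 2, beside 90, 94, 94 and 95 bp for the 4114 protein-coding genes treated in the same way. Of those 4114 genes, 91.5%, 90.4%, 90.1% and 90.9% had a downstream summit in these libraries, so this position was not particular to the Vha genes. Within a gene the 4 positions spanned 9 bp (Vha100-2) to 103 bp (Vha26). The summit of Vha100-2 lay 25 to 34 bp from its start and that of Vha16-1 58 to 69 bp, while VhaPPA1-1 lay farthest, at 110 to 196 bp. Over every Vha gene with a start peak, without regard to the nearest start, the median position was 55.5 ± 17.7 bp in mock and 65.25 ± 1.06 bp in siAGO2 (SD, n = 2; exact permutation test, two-sided, p = 1).

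**Figure D4:**
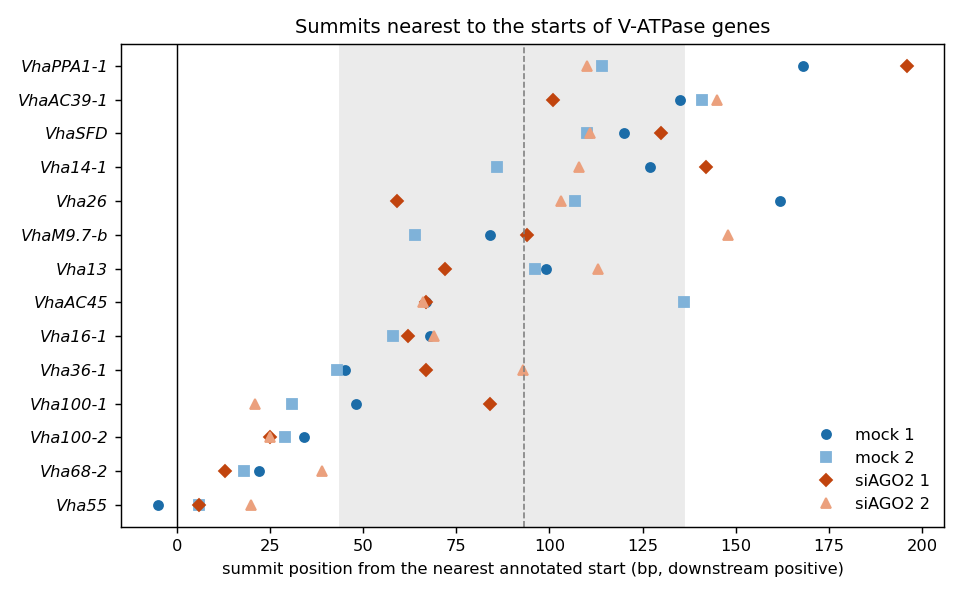
Position of the summit nearest to the start of each of 14 Vha genes, in bp downstream of the nearest annotated start of the gene, with 1 point for each library. The dashed line and grey band give the mean over libraries of the median and of the first and the third quartile of 4114 protein-coding genes; the Vha summits run from -5 bp at Vha55 to 196 bp at VhaPPA1-1.

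The lists also show which of several annotated starts lay nearest to the highest summit. At Vha100-2 this was the start 2241 bp upstream of the start of the Ensembl canonical transcript, at chr3R position 18399169. At Vha16-1 it was a start 706 bp upstream of the canonical one, and at Vha68-2 one 258 bp upstream. At Vha55 it was a start 128 bp downstream of the canonical one. These 4 nearest starts were the same in every list. At Vha16-1, Vha68-2 and Vha55 the same peak also covered the canonical start in every list, so use of that start is not excluded. At Vha100-2 a separate, lower peak overlapped the canonical start in every list. In siAGO2 1 its summit lay 55 bp from that start, with an enrichment of 12.7. In mock 1, mock 2 and siAGO2 2 its summit lay at -514, -541 and -504 bp, with an enrichment of 35.9, 47.0 and 29.1. In those lists the summit was nearest to Vti1b, which has a start 67 bp from the canonical one on the other strand.

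Peak width varied widely among the genes. The peak of Vha16-1 was 1800 and 1389 bp wide in mock 1 and mock 2, and 1373 and 1294 bp in siAGO2 1 and siAGO2 2. That of Vha68-2 was 1496, 1346, 1013 and 1075 bp. Peaks wider than 1000 bp were held by 5, 3, 2 and 3 of the 16 genes in the 4 libraries, beside 16.0%, 7.13%, 4.89% and 7.58% of all protein-coding genes. At Vha55 the peak was 1634 and 1604 bp wide in the mock lists and reached towards Snx3, which starts 202 bp away on the other strand. In siAGO2 1 and siAGO2 2 it was 566 and 485 bp wide, and a separate peak of 936 and 893 bp lay on the Snx3 side. Peaks were narrower in both siAGO2 lists than in either mock list at 5 genes (Vha100-2, Vha13, Vha16-1, Vha55 and Vha68-2), beside 39% of all protein-coding genes, and wider at none, beside 3.36%. The median width over all protein-coding genes was 619, 501, 452 and 507 bp in mock 1, mock 2, siAGO2 1 and siAGO2 2. It was widest in mock 1, the deepest library, and narrowest in siAGO2 1, the shallowest. Between the other libraries it did not follow depth, as siAGO2 2 was slightly wider than the deeper mock 2. The part of depth in these values was not tested.

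The tissue-restricted copies had no NELF-E peak even beside bound ones. In the A subunit pair, the testis gene Vha68-3 begins 178 bp after the end of Vha68-2 and had no start peak in any list. The midgut gene Vha100-4 follows Vha100-2 at 517 bp, and the testis gene VhaPPA1-2 follows VhaPPA1-1 at 2052 bp, and neither had a start peak. The gut proteolipid genes Vha16-3 and Vha16-2 lie 985 bp apart and were both without one. Other genes without a start peak in any list were Vha100-3, Vha14-2, Vha36-2, Vha36-3, VhaAC39-2 and VhaM9.7-d of the tissue-restricted class, and Vha100-5, Vha16-4 and VhaAC45RP of the unsure class. For these 14 genes the start lay 1360 to 113832 bp from the nearest peak, with a median of 6826 bp, and no peak lay in the body of any of them.

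Vha100-1, whose product acts in neurons, was the exception. Its own peak held 74, 41, 15 and 29 fragments in mock 1, mock 2, siAGO2 1 and siAGO2 2, an enrichment of 16.6, 18.7, 12.7 and 19.6. Its rank percentile was 28.4, 31.8, 15.6 and 40.6, in the lower part of all bound genes in every library. The start of dgt6, a gene of the augmin complex, lies 295 bp away on the other strand and had a separate peak in each list. The groups overlapped on both scales.

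Promoter letters were counted in the same window of 300 bases in 13968 protein-coding genes. CACGTG, the core of the CLEAR element, was present at 4 of the 33 genes (12.1%), which were Vha55, Vha44, VhaAC45RP and VhaM9.7-d, beside 4.22% of all promoters. At Vha55 it began 72 bases before the start and at Vha44 47 bases before it. VhaAC45RP and VhaM9.7-d had no start peak in any list, so 2 of the 4 genes with these letters lacked a peak. The peaks in the window of Vha44 lay nearest to Hmgs, so only Vha55 of the 4 had a peak nearest to its own start. No match says only that these letters are not in this window.

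Core promoter letters varied among the widely expressed genes. The DRE core TATCGAT was at 3 of the 14 (Vha13, Vha36-1 and VhaSFD), a share of 21.4% beside 17.9% of all promoters and 29% of those bound in all 4 lists. GGTCACA, the core of Ohler motif 1, was also at 3 (Vha14-1, Vha26 and Vha68-2), beside 9.94% and 18.3%, and at Vha100-1. The GAGA letters GAGAG were at 4 (Vha100-2, Vha44, Vha68-2 and VhaAC45), a share of 28.6% beside 31% of all promoters. CAGCTG, the E-box of the Ohler set, was at 5 (Vha14-1, Vha36-1, Vha44, VhaAC45 and VhaSFD), a share of 35.7% beside 18.3%. TATAAA on either strand was at 6 of them (42.9% beside 44.9%), and TCAGT, the initiator core read on the sense strand, also at 6 (42.9% beside 37.1%). All but TCAGT were searched on both strands, and none of them contains another. A match counted anywhere in the window, whatever its distance from the start. TCAGT, for example, began at 3 bases from the start in Vha68-2 and at -241 bases in VhaPPA1-1. No single set of letters was common to the bound genes. Among the 12 tissue-restricted genes, TATAAA and TCAGT were at 7 each, a share of 58.3%, and TATCGAT was at 0.

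The V-ATPase works with other proteins. Partner genes of its assembly and regulation, of the lysosome, of the mTOR pathway and of chloride channels, 25 in all, were read in the same way. Of these, 14 (56%) had a start peak in all 4 lists, 4 in some and 7 in none, beside 37% of all protein-coding genes in all 4 lists. The highest mean rank percentiles were those of Npc2a (93.6), which encodes a lysosomal sterol carrier, of the protease genes CtsL1 (88.7), CtsB (88.0) and cathD (83.2), and of spin (84.7), a lysosomal permease gene. The values of Vha16-1 (87.2) and Vha68-2 (87.4) lay among these. Rbcn-3B, a partner in pump assembly, and Ppt1, a lysosomal thioesterase gene, had a start peak in both mock lists only. So did 2.51% of all protein-coding genes, while 0.00715% had the reverse. These peaks were weak, with an enrichment in mock 1 and mock 2 of 9.19 and 8.68 at Rbcn-3B and 10.1 and 10.5 at Ppt1. The part of depth in their presence was not tested. RagA-B, a GTPase gene of the mTOR pathway, had a start peak in 1 list and ClC-b, a chloride transporter gene, in 3. None was found at Mitf, Lamtor2, Lamtor3, Lamtor4, Trpml, Gba1b or ClC-a.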

How the data were processed

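NELF-E ChIP-seq of Kc167 cells was analysed from 4 deposited peak lists, 1 for each library and not pooled, with coordinates of dm6. Per the study's methods, 50 bp reads were trimmed (cutadapt) and aligned (bowtie2), those under a mapping quality of 20 (samtools) and duplicates (Picard) were dropped, and the authors called peaks with MACS2 (2.1.1.20160309 per the labels) against input. For NELF-E, the MACS2 settings for genome size and fragment length are not stated in the sources used here. The score as deposited equals 10 times the −log10 q-value, rounded down. Fold, also deposited, divides the summit pileup by the local background, with 1 added to each, and the −log10 p-value of the summit is the authors' Poisson value. The lists keep peaks past a q-value of 0.05 and give no read counts, so no count test could be made.

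Fragments at the summit and the background were solved from fold and p-value, which matched all 26987 peaks within 0.001 in −log10 p; in mock 1 the pileup was scaled by 0.919. The genome-wide background is the lowest one shared by at least 1% of peaks of a list. Both steps were tested on simulated data. The lists held 7944 and 6933 peaks (mock) and 5904 and 6206 (siAGO2), with a median of 69, 41, 26 and 29 summit fragments. Starts came from Ensembl BDGP6.54 (release 115), and a peak counted at an overlap of at least 1 bp. When several peaks overlapped, the one of the highest score was used.

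Groups were compared by a two-sided exact permutation test of library labels, at 2 against 2. Vha genes and their classes, the 25 partner genes and the letters searched were chosen with earlier results of these data known. Every Vha gene is named, with values where it had a start peak. Partner genes are named if bound in 0 to 3 lists or among the 5 of highest mean rank. Promoters are printed, among genes not on arm 2R, for the highest and lowest ranked gene bound in all 4 lists, the highest ranked tissue-restricted gene and genes with CACGTG. The lowest ranked gene of all, Vha14-1, lies on that arm. Alternatives were window size (250 or 1500 bp), summit in the window, canonical starts, a score of at least 100, equal list length (5904 peaks), nearest start only, other ranks, the unsure class in either class, a replicate block and each library left out. Analyses used Python 3.11.15, numpy 2.4.6, pandas 2.3.3 and scipy 1.17.1.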

Additional observations from a re-analysis of the deposited data

How the results depend on the processing

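Of 130 alternative values, 110 kept their direction or stayed within 1.5 times the main count, 10 moved and 10 reversed. No difference between mock and siAGO2 could pass its test under any of them. All 14 widely expressed genes kept a start peak in every list, except 13 with canonical starts or the nearest start only (without Vha44) and 12 with a score of at least 100 (without Vha14-1 and Vha26). With a window of 1500 bp, 3 tissue-restricted genes had a start peak in any list (Vha100-1, VhaAC39-2 and VhaPPA1-2) in place of 1. The siAGO2 minus mock difference in median summit position, 9.75 bp, became -1.5 bp with 1500 bp, -1.5 bp with canonical starts and -0.5 bp with the nearest start only, and ran from -2.75 bp (without mock 2) to 22.25 bp with a library left out. The difference in median rank percentile, 1.84 points, became -0.18 with 250 bp, -0.27 with the summit in the window, -0.19 with a score of at least 100 and -3.61 with percentiles over the whole list, and ran from 0.52 (without siAGO2 2) to 3.17 (without mock 1); that in median enrichment, 3.27, ran from 0.632 (without mock 1) to 5.11 (without mock 2). The difference in the number of genes, -0.5, became 1 with equal list length, and ran from -1.5 to 0.5 (without mock 1), with 0 without siAGO2 2. The gap between the widely expressed and tissue-restricted shares was 91.7 points in both groups, a difference of 0. It was 79.2 points in both with 1500 bp. With a score of at least 100 it was 88.1 in mock and 92.3 in siAGO2, a difference of 4.17. With the unsure class as tissue-restricted it was 78.9 in mock and 81.6 in siAGO2, a difference of 2.63. With that class as widely expressed it fell to 72.6 in mock and 70.2 in siAGO2, a difference of -2.38. Genes bound in 1 group only, 0 with all libraries, numbered 0 to 1 with a library left out. Genes separated by rank, 8 with all, then numbered 10 to 14. Without siAGO2 1, 10 were higher and 4 lower, beside 37.14% and 34.51% of all protein-coding genes bound in the lists kept. Without siAGO2 2, 5 were higher and 8 lower, beside 36.76% and 34.26%. The shares over all genes thus rose as well from the 22.05% and 20.46% with all libraries. The cause of these changes was not tested, beyond the smaller number of libraries compared. The replicate numbers are shared by name only: same-numbered deviations correlated at -0.196 in log2 enrichment and -0.0331 in rank percentile, over 5175 genes. A replicate block left each difference as it was (-0.5 genes, 1.84 rank points, 9.75 bp and 3.27 in enrichment; sign-flip test over 2 pairs, exact, p = 1, smallest possible 0.5), and crossed numbers, an alternative chosen after seeing the data, made 0 calls as well. The peaks of genes bound in some lists (Vha68-1, VhaM9.7-a and VhaM9.7-c), at 11 to 51 fragments, ranked in the lowest 26.8% of their lists, and the part of depth in their presence was not tested.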
